A study of Mus musculus with 8 samples.

Results

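Stretches of open chromatin that every sample shared, but that lay far from any protein-coding gene start, were examined in the developing mouse forebrain. Peaks of the 8 samples on chromosomes 1 to 19 were merged where they touched. A merged region was kept if it had a peak in all 8 samples, was narrower than 6000 bp and had its midpoint over 200 kb from every protein-coding transcript start of GENCODE M21, on the mouse genome build GRCm38. This rule left 6054 of 286181 merged regions, called far shared regions here, or 9.06% of the 66854 regions with a peak in every sample. The member nearest to the distance limit lay 200018 bp from a start, and the nearest region left out lay at 199986 bp.

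Accessibility was measured by single-nucleus ATAC-seq, in which a transposase cuts exposed DNA inside isolated nuclei. The samples came from wild-type embryonic brain, 2 each from the cortex (CTX) and from the medial, lateral and caudal ganglionic eminences (MGE, LGE and CGE, jointly GE). The labels give E12.5 (embryonic day) for 7 samples and E14.5 for CTX replicate 2, so that age and sample cannot be told apart within CTX. They do not give the number of embryos behind a sample, so the p-values measure the spread between these samples, which may be technical. Each sample was a droplet library of 3465 to 6845 nuclei with 77387940 to 138873845 counts in its peaks.

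Several facts of the whole libraries bear on the values that follow. Peaks were called by the authors in each sample separately, and a region's count is the sum over the sample's own peaks inside it. The length called as peak ran from 87.2 Mb in LGE replicate 1 to 168 Mb in CTX replicate 1, and a longer peak collects more counts. Entries with an odd count made up 9.54% to 10.4% of the replicate 1 matrices and 5.17% to 5.85% of the replicate 2 matrices, which sets the replicate 1 libraries apart from the replicate 2 libraries. Any pair of libraries shared 15 to 56 barcodes. Marker genes are given in CPM as counts scaled to the total in all of a sample's own peaks. The CPM of far regions is scaled instead to a common library size over all shared regions. Peaks over Nkx2-1, the MGE homeobox gene, summed to 496 and 319 CPM in MGE and to 13.7 to 33.3 CPM elsewhere. The eminence markers Dlx1, Dlx5 and Gad2 together held 118 and 137 CPM in CTX against 497.0 to 1061 CPM in GE. Dlx2 was left out of that sum, since in 4 samples it had the same peaks as its neighbour Dlx1, and Dlx5 alone in LGE replicate 1 stood at 58.5 CPM, beside 49.97 and 57.5 in CTX. The LGE and CGE markers Ebf1, Isl1, Nr2f1 and Nr2f2 did not set LGE apart, with sums of 561 and 599.7 CPM in LGE, 955 and 1423 in CGE, 782 and 785 in MGE and 693 and 610.1 in CTX. The 4 cortical markers Emx1, Neurod6, Eomes and Tbr1 held 402 and 313 CPM in CTX against 147 to 194 CPM in GE. Among blood and microglia markers, Hba-a1 was at 0 in every sample and Hbb-bt, Gata1 and Aif1 were at 1.24 CPM or less, while Csf1r held 2.14 to 11.3 CPM, Klf1 24.6 to 34.997 CPM and Cx3cr1 104 to 143 CPM. The erythroid list summed to 25.2 and 35.5 CPM in CTX and 24.7 to 32.6 CPM in GE, and the microglia list to 149.9 and 116 CPM in CTX and 107 to 133.5 CPM in GE.

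Open chromatin far from genes contains enhancers, which act on promoters over long distances, and sites of architectural proteins such as CTCF, which shape the loops between them. Long intervals without genes, known as gene deserts, often flank genes for developmental transcription factors, and that around Sox9 is a textbook case of control from afar. In the embryonic forebrain the cortex gives rise to glutamatergic neurons and the eminences give rise to GABAergic neurons, and distal elements are known to differ between such regions more than promoters do.

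Examples of these regions are shown in sequence, each as the 300 bases around the midpoint on the forward strand of the RefSeq GRCm38.p6 reference, with matches to the motifs described further on in capitals. Those shown for their fold were ranked among called regions whose groups did not overlap and of which every sample's peaks covered at least 200 bp. The first, chr13:47869949-47870248, lay between Rnf144b and Id4 and had the largest fold higher in CTX, and its capitals mark ACAAAG, a core of SOX sites. The second, chr7:72774371-72774670, lay between Mctp2 and Rgma and had the largest fold lower in CTX under that limit. The third, chr5:142075246-142075545, lay in an intron of Sdk1 and was the most raised in MGE against LGE, with the E-box CAGCTG present in 2 places. The fourth, chr12:29290814-29291113, lay upstream of Myt1l and had the highest level per covered kilobase. The last, chr1:102628112-102628411, was the farthest from any start among those printed, with a CAGATG E-box and the homeodomain core TAATTA.
Rnf144b to Id4 region: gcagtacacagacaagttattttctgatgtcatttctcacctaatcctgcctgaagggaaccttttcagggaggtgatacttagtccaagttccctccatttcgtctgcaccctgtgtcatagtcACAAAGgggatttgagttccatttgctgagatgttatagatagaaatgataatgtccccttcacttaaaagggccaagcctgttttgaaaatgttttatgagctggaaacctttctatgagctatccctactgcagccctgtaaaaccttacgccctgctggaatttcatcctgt
Mctp2 to Rgma region: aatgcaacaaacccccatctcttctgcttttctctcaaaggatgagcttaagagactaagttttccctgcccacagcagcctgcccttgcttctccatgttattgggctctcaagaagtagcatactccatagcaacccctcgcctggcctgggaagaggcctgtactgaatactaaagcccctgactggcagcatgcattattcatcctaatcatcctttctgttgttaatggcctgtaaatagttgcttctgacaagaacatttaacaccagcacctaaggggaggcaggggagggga
Sdk1 region: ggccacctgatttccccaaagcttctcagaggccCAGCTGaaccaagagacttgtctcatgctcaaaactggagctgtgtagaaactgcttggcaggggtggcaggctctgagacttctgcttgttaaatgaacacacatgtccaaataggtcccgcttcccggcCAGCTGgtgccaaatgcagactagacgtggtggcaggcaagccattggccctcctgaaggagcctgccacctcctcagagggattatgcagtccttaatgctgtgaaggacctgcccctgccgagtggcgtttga
Eipr1 to Myt1l region: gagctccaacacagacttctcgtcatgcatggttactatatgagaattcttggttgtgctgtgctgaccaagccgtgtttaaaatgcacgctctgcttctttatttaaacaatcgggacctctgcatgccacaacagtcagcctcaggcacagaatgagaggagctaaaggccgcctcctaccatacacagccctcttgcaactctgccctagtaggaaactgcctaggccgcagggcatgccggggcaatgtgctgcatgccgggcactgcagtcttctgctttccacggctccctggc
Cntnap5b to Cdh20 region: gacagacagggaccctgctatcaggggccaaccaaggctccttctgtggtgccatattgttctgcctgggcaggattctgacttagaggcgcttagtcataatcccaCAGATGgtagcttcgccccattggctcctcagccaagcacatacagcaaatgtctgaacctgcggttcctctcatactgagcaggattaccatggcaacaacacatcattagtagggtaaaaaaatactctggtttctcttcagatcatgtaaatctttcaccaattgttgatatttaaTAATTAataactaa

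The far shared regions were of ordinary width and mostly lay outside genes. Their median width was 1439.5 bp, with quartiles of 994 and 2086 bp. The median distance to the nearest start was 314 kb, and 3270 regions lay over 300 kb, 1185 over 500 kb and 190 over 1 Mb from one. No protein-coding or lncRNA gene covered the midpoint of 63.6% of them. A further 22.9% had it in an intron of a long protein-coding gene, 12.9% had it in a lncRNA gene, and 37 regions had it in a protein-coding exon. A lncRNA start lay within 10 kb of 10.3%, and 403 regions were over 200 kb from the start of any annotated transcript. The rule depends on the annotation, since 5291 of the 6054 regions also lay over 200 kb from every RefSeq mRNA start and the others did not. The sample's own peaks covered at least 200 bp of the region in every sample in 5382 regions, while 165 had no base covered in all 8 samples and 31 had a count of 0 in at least 1 sample.

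Shared open chromatin was sparser far from genes. Shared regions under 6000 bp numbered 206 per Mb within 1 kb of a start, 28.5 at 1 to 10 kb, 29.3 at 10 to 50 kb, 23.9 per Mb at 50 to 200 kb, 16.0 at 200 to 300 kb, 11.03 at 300 to 500 kb, 5.74 at 500 kb to 1 Mb and 2.47 beyond 1 Mb. The far regions together stood at 9.88 per Mb over 613 Mb of such genome. They were also less often shared: of the 49201 narrow merged regions over 200 kb from a start, 12.3% had a peak in all 8 samples and 43.7% in a single sample, against 25.2% in all 8 for nearer regions. GC content of the 300 bases at the midpoint fell along the same axis, from a median of 62.3% within 1 kb of a start to 47.3% at 50 to 200 kb and 40.0% beyond 1 Mb.

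**Figure D1:**
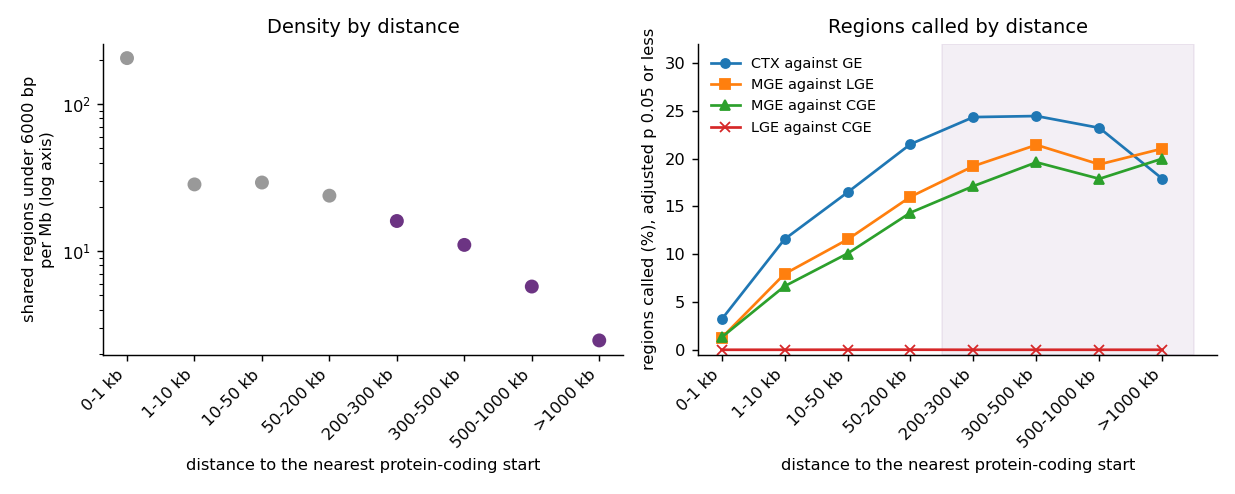
Density of shared regions under 6000 bp per Mb (left, log axis; purple points are the far shared regions) and percent of them called in each of the 4 contrasts by edgeR (right; the shaded part is beyond 200 kb), by distance to the nearest protein-coding start. Density falls from 206 to 2.47 per Mb, while the percent called in CTX against GE rises from 3.17% within 1 kb to 24.4% at 200 to 300 kb. In the classes farther out it is 24.5%, 23.2% and, for the 190 farthest regions, 17.9%.

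Within the deserts the regions came in groups. Intervals between neighbouring protein-coding starts were counted if long enough to hold a far shared region. Those between a chromosome end and its nearest start were counted at the same length limit. Of these 1122 intervals (called deserts here, though genes can reach into them), 864 held at least 1 far shared region. The 212 intervals with 10 or more held 60.5% of all. Another far shared region lay within 100 kb of 87.7% of them, with a median gap of 35.3 kb between neighbours, while the share was 91.4% for the denser class at 50 to 200 kb from a start. Density was far from even: among the 701 intervals with at least 200 kb of eligible sequence the median was 7.07 per Mb, the 90th percentile was 32.9 per Mb, the highest was 92.2 per Mb and 78 intervals were empty. Among the empty ones was the 2951 kb between Lrfn5, a synaptic adhesion protein, and Fscb. Some empty ones lay at chromosome starts, such as the 3169 kb before AU018091 on chromosome 7. The 783.5 kb between Sox9 and Slc39a11 was among the densest, at 91.3 per Mb.

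Joining neighbours up to 100 kb apart gave 1749 runs, of which 742 were lone regions. The longest run by count had 43 regions over 995 kb of chromosome 18, between the zinc finger gene Zfp608 and Gramd3. It was followed by 37 regions over 599 kb between the kinesin gene Kif2a and Smim15 on chromosome 13. The next held 35 regions each, over 353 kb between Sox9, a transcription factor of neural progenitors and glia, and the zinc transporter gene Slc39a11 on chromosome 11, and over 506 kb between the ribosomal protein gene Rps24 and the transcriptional coregulator gene Zmiz1 on chromosome 14. The next held 33 regions each, over 390 kb between Matn1 and the receptor phosphatase gene Ptpru on chromosome 4, and over 516 kb between Cd83 and Jarid2 on chromosome 13. In the Kif2a to Smim15 run 12 regions lay within 200 kb of a RefSeq start of Zswim6, which the GENCODE annotation used here did not list with a protein-coding transcript, and in the Zfp608 to Gramd3 run 1 region lay within 200 kb of a RefSeq start of Gramd3.

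Sums and calls in CTX and GE are given for each run, and no test compared the runs. Summed over the 43 regions of the Zfp608 to Gramd3 run, the level was 736 and 785 CPM in CTX, 471 and 619 in MGE, 474 and 538 in LGE and 504 and 610 in CGE. Both CTX samples stood above all GE samples, and 11 of its regions were higher in CTX and 1 lower by the edgeR test described further on (4 and 2 with the covered-length offset given there). The Sox9 to Slc39a11 run summed to 579 and 465 CPM in CTX and to 378 to 451 CPM in GE, again without overlap, with 9 regions higher and 2 lower (5 and 1 with the offset). These counts stand beside the 24.0% of all far regions called in this contrast (929 higher and 524 lower) and the 15.1% of all tested. In the Kif2a to Smim15 run the sums were 434 and 425 CPM in CTX and 433 to 502 CPM in GE, which overlapped, and 2 regions were higher and 6 lower (2 and 5 with the offset). The Cd83 to Jarid2 run summed to 339 and 422 CPM in CTX and 237 to 324 CPM in GE, without overlap. In it 10 regions were higher and 1 lower (6 and 2 with the offset). The median log2 folds of the Zfp608, Sox9 and Cd83 runs were 0.43, 0.20 and 0.93, or 0.05, 0.01 and 0.36 with the offset. Calls went both ways in the others, with 5 higher and 4 lower at Rps24 to Zmiz1 (4 and 4 with the offset) and 4 higher and 6 lower at Matn1 to Ptpru (1 and 3 with the offset). Levels within a run spanned wide ranges, with means of 1.41 to 73.3 CPM between Zfp608 and Gramd3.

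**Figure D2:**
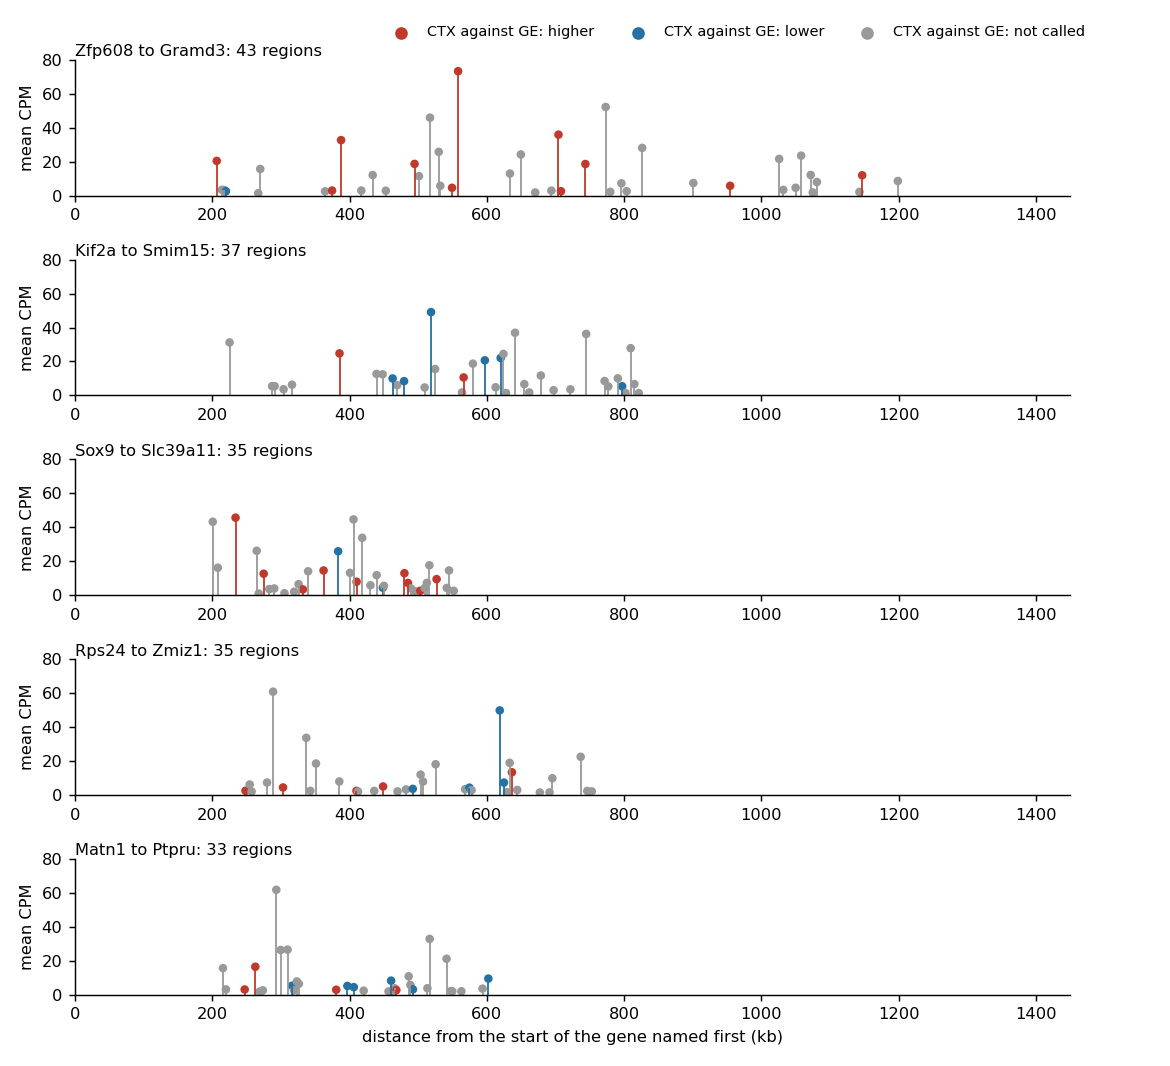
Mean CPM over the 8 samples of each far shared region in 5 of the 6 runs with most regions (the Cd83 to Jarid2 run, tied with the last, is not drawn), by distance in kb from the start of the gene named first, with colour for the edgeR call in CTX against GE. In the Zfp608 to Gramd3 run 11 of 43 regions are higher in CTX and 1 is lower, and no region lies within 200 kb of a start by construction.

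As a group the far shared regions were slightly more open than shared regions 50 to 200 kb from a start, and far less so than those within 1 kb of one, where the median was 16.3 CPM per kilobase against 5.26. The median level in CPM per kilobase covered by the sample's own peaks was 5.18 and 4.86 in CTX, 4.53 and 4.67 in MGE, 6.20 and 4.88 in LGE and 5.03 and 4.50 in CGE. For regions 50 to 200 kb from a start the medians were 5.01 and 4.58, 4.63 and 4.41, 5.99 and 4.58, and 4.81 and 4.13 in the same order. The far regions were higher in 7 of 8 samples, all but MGE replicate 1, by a mean log2 difference of 0.065 ± 0.046 (SD, n = 8, exact two-sided sign-flip permutation p = 0.0156). For the 403 regions far from any annotated transcript the difference was 0.052 with an exact permutation p of 0.0547. Both sets were kept for a peak in every sample. Of narrow merged regions, 12.3% over 200 kb from a start and 25.2% of nearer ones had one. The part of this selection in the level was not tested, and a p-value over samples cannot address it. The median region had a count in 3.17% to 6.40% of the nuclei of a sample.

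The 5 far regions with the highest level per covered kilobase were open in every part of the forebrain. The first lay 237 kb from Myt1l, a zinc finger factor of neurons, with 66.8 and 69.9 CPM in CTX, 53.6 and 75.005 in MGE, 72.2 and 77.1 in LGE and 66.02 and 71.1 in CGE. The second, 228 kb from Tprg, had 117 and 169 CPM in CTX and 89.3 to 114 CPM in GE. The others lay nearest to the transcription factor gene Nfe2l3, the ephrin receptor gene Epha3 and the protein methyltransferase relative Pcmtd1, at 39.2 to 89.8, 40.04 to 85.6 and 74.2 to 108 CPM over the 8 samples. None of the 5 was called in any contrast by edgeR, though with the covered-length offset the Epha3 region was lower in MGE than in LGE by 0.66 on the log2 scale (edgeR adjusted p 0.0321). The region near Nfe2l3 had 39.2 to 59.5 CPM in the 4 replicate 1 samples and 67.3 to 89.8 CPM in the 4 replicate 2 samples, without overlap, and RefSeq places a start of Gm38821 at 102 kb from it.

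At the other extreme, the 5 regions farthest from a start lay 2129 to 2202 kb away. The first 3 were in the 4519 kb desert between Celf4, an RNA-binding protein of neurons, and Pik3c3 on chromosome 18, which held 31 far shared regions in all. The farthest, at chr18:27954244-27957713, had 24.3 and 57.8 CPM in CTX, 5.999 and 10.6 in MGE, 18.2 and 30.3 in LGE and 16.3 and 23.7 in CGE. It was lower in MGE than in LGE by 1.57 on the log2 scale (edgeR adjusted p 0.0276) and barely called higher in CTX (1.37, edgeR adjusted p 0.0492), with CTX replicate 1 inside the GE range. With the covered-length offset described further on the CTX difference was 0.31 and no longer called (edgeR adjusted p 0.545). The second, 2195 kb from Pik3c3, held 21.6 to 39.05 CPM in the 8 samples and was not called. The others lay near the cadherin gene Cdh20 on chromosome 1, with 1.67 to 2.63 CPM, and near the protocadherin gene Pcdh20 on chromosome 14, with 0.80 to 4.97 CPM. In the third Celf4 region no base was covered by peaks of all 8 samples.

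The genes nearest to most far shared regions were Zfp608 with 44, the latrophilin gene Adgrl2 and the teneurin gene Tenm2 with 31 each, Celf4 with 30, Sox9 with 28, the cell adhesion gene Lsamp with 27, and Castor2, the ephrin ligand gene Efna5, Smim15 and the homeobox gene Zfhx3 with 25 each. In all, 1257 genes were nearest to at least 1 region, and the 172 with 10 or more took 41.5%. A nearest gene is a label of position, not of control. For 23 of the 25 Zfhx3 regions a RefSeq start of Zfhx3 lay within 200 kb, as did a RefSeq Tenm2 start for 15 of 31. A RefSeq start also lay within 200 kb for 17 of 25 Efna5, 12 of 25 Smim15, 11 of 30 Celf4 and 10 of 27 Lsamp regions. For Zfp608, Adgrl2, Sox9 and Castor2 the number was 0.

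Long neuronal genes and developmental regulators took unequal shares. Genes of a list of forebrain transcription factors (55 of 111 annotated with at least 1 region) were nearest to 486 regions, or 8.03%, though they bordered 4.01% of the eligible desert sequence, which makes 19.8 regions per Mb. Adhesion, guidance and synaptic genes were nearest to 683 regions, or 11.3%, over 17.3% of the sequence, at 6.45 per Mb. Channels and transmitter receptors had 84 regions, signalling ligands and receptors 57, and vascular, blood and mesenchymal genes 16, at 5.17, 11.4 and 11.6 per Mb. Density also falls with distance within the eligible sequence, from 16.0 per Mb at 200 to 300 kb to 2.47 beyond 1 Mb. The lists were not matched for distance, and its part in these densities was not tested. The lists were chosen with earlier results of these data known, and no test was made of these shares.

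The share of all counts that fell in far shared regions was larger in CTX. It was 6.24% and 5.98% in CTX, 4.08% and 5.13% in MGE, 5.26% and 5.07% in LGE and 5.68% and 5.25% in CGE, of the counts in all shared regions. Both CTX samples stood above the 6 GE samples, whose mean was 5.08% ± 0.54 (SD, n = 6), by 1.03 percentage points (exact two-sided permutation p = 0.0357, the smallest that 28 choices of 2 samples can give). Within the replicate 1 samples the difference was 1.23 points and within the replicate 2 samples 0.83 points. As a share of shared regions over 10 kb from a start, CTX had 14.8% and 15.5% and GE 11.95% to 14.8%, which overlapped (exact permutation p = 0.286). The median length covered by a sample's own peaks in a far region was 1046 and 907 bp in CTX, 731 and 978 bp in MGE, 704 and 908 bp in LGE and 1020 and 1089 bp in CGE, and its part in the share was not tested.

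**Figure D3:**
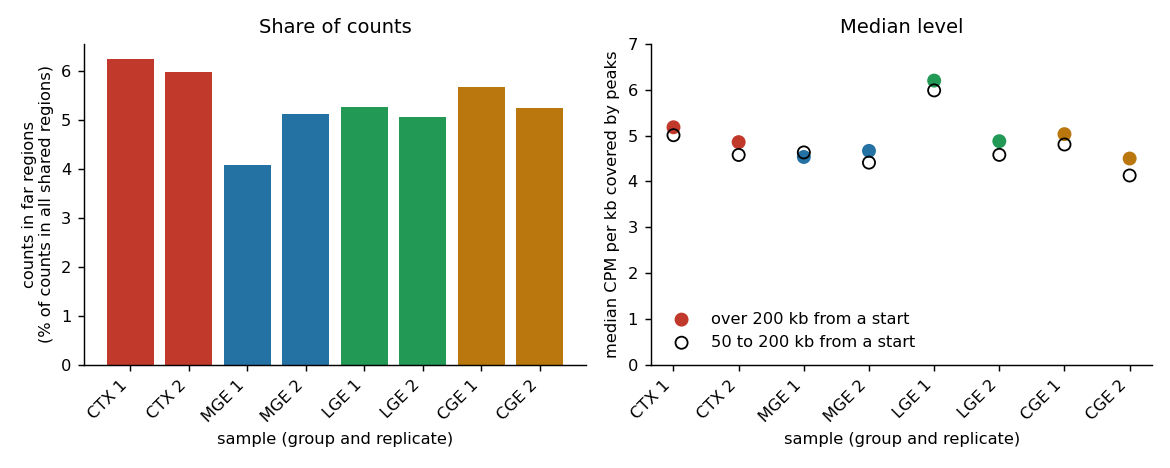
Counts in far shared regions as a percent of counts in all shared regions (left, bars, 1 per sample) and median CPM per kilobase covered by peaks (right) for far shared regions (filled) and regions 50 to 200 kb from a start (open), coloured by region. Both CTX bars, at 6.24% and 5.98%, exceed the 6 GE bars, and the filled points lie above the open ones in 7 of 8 samples.

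Samples of an eminence resembled each other closely in these regions, and the 2 CTX samples did not. Across the 6054 regions, which are not independent, log2 CPM correlated at 0.928 within MGE, 0.944 within LGE, 0.952 within CGE and 0.637 within CTX. CTX replicate 1 correlated more with CGE replicate 1 (0.676) than with CTX replicate 2. A 4-fold or larger difference between the samples of a pair was found in 12.9% of the far regions in CTX, with 270 higher at E14.5 and 511 higher at E12.5, against 0.859% in MGE, 0.479% in LGE and 0.0330% in CGE. Over all shared regions the CTX figure was 6.95%. Age and library cannot be told apart in these differences.

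**Figure D4:**
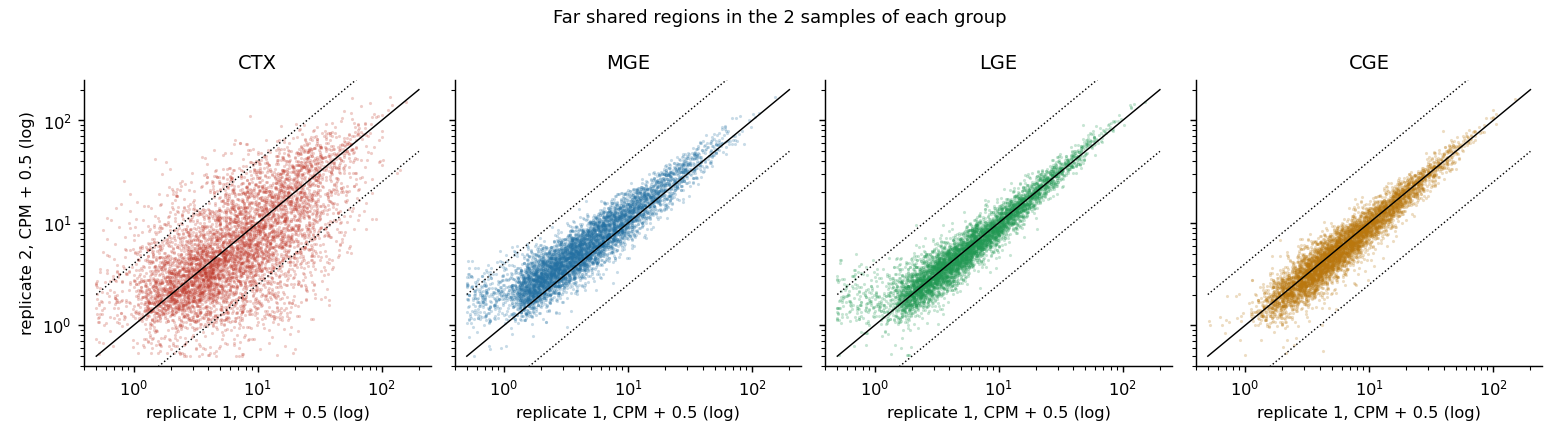
CPM plus 0.5 of the 6054 far shared regions in replicate 1 (x axis) and replicate 2 (y axis) of each group, on log axes, with the line of equality and dotted lines at 4-fold. The CTX pair, E12.5 and E14.5, scatters far wider than the 3 eminence pairs, with 12.9% of regions past 4-fold.

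The contrast of CTX with the GE asks which far elements separate dorsal from ventral forebrain. edgeR's quasi-likelihood test called 1453 far shared regions, or 24.0%, (Benjamini-Hochberg adjusted p at most 0.05), where 15.1% of all 66854 shared regions were called and 21.5% of those 50 to 200 kb from a start. Of these, 929 were higher in CTX (9.6% of all tested) and 524 lower (5.46%). CTX and GE values were fully apart in 1273 of the calls, and in 30.6% of all far regions against 24.5% of all tested. The median log2 fold of all far regions was 0.23, beside 0.03 over all tested. With an offset for the length each sample's peaks covered, 1034 were called, 591 higher and 443 lower, against 9.32% of all tested, and the medians were 0.03 and -0.06. The count rose to 2454 (24.4% of all tested called) when CTX replicate 1 was left out and to 2348 (26.5%) when CTX replicate 2 was. It dropped to 920 (8.78%) on omitting MGE replicate 1, to 869 (8.64%) and 816 (7.97%) on omitting the LGE samples in turn, and to 825 (8.11%) and 672 (6.38%) on omitting the CGE samples in turn. Without CTX replicate 2 all samples are of E12.5, while without CTX replicate 1 age and region cannot be told apart. With 1 CTX sample left, the spread comes from the GE samples alone, and the lone CTX sample is assumed to vary like them. Those fits share the GE samples, and 1260 regions were called in both (51.3% and 53.7% of each), 1079 of them in the same direction and the rest in opposite ones. Of the 1453 calls with both CTX samples, 1031 were called in both.

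The largest folds were ranked among called regions with groups fully apart and at least 200 bp covered in every sample, which leaves out called regions with less cover, such as those near Sox6 (4.48) and Sema6d (-5.69) given further on. By this ranking, regions higher in CTX lay by genes of varied function. The first, at chr13:47868720-47871479 and 391 kb from Id4, whose product blocks basic helix-loop-helix factors in progenitors, had 54.2 and 71.04 CPM in CTX and a lowest, median and highest value of 1.77, 1.93 and 5.95 CPM in GE. Both CTX samples stood far above every GE sample, by 4.55 on the log2 scale (SE 0.38, edgeR adjusted p 0.00244). The second, on chromosome 18 between the histamine receptor gene Hrh4 and the zinc finger gene Zfp521, had 44.8 CPM at E12.5 and 10.3 at E14.5 in CTX and 0.63 to 3.05 CPM in GE, which differed by 4.12 on the log2 scale (SE 0.56, adjusted p 0.00584 in edgeR). The third, 223 kb from Sec61b and in the same desert as the nuclear receptor gene Nr4a3, had 48.1 and 39.4 CPM in CTX against 1.354 to 3.54 CPM in GE, which gave 4.07 on the log2 scale (SE 0.32, adjusted p 0.00229 in edgeR). With the covered-length offset the folds of the 3 were 2.90, 2.64 and 2.79, all still called. CTX peaks covered 2760 and 2013 bp of the first and GE peaks 529 to 1046 bp.

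Among regions lower in CTX the first of the same ranking lay 468 kb from Mctp2, in the desert it shares with the guidance gene Rgma, at chr7:72773766-72775276. It held 1.66 and 1.15 CPM in CTX and a lowest, median and highest value of 20.1, 26.0 and 31.9 CPM in GE, for a log2 difference of -4.21 (SE 0.24, edgeR adjusted p 0.00219). The second, in an intron of the pyrimidine catabolism gene Dpyd, held 1.92 and 0.46 CPM in CTX and 10.2 to 28.6 CPM in GE (-3.70, SE 0.63, edgeR adjusted p 0.0113). The third, 345 kb from the zinc finger gene Tshz3, held 0.75 and 1.37 CPM against 7.15 to 19.1 CPM (-3.65, SE 0.33, edgeR adjusted p 0.00264). In the last 2 regions MGE had the lowest values among the eminences. The offset gave -2.68, -2.54 and -2.42, all still called.

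The direction of neighbouring calls was compared along each desert. Of neighbouring far regions up to 25 kb apart that were both called, 72.7% of 154 pairs moved in the same direction, and 75% of 108 pairs 25 to 100 kb apart, while it was 56.5% of 46 pairs over 100 kb apart and 55.6% of 45 pairs in adjacent deserts. The overall split of higher and lower calls alone would give 53.9%. Between MGE and CGE the split gives 59.7%, and the shares were 71.4%, 77.2% and 79.3% in the 3 distance classes and 75.9% in adjacent deserts, and between MGE and LGE, where the split gives 54.2%, they were 61.7%, 75.3%, 61.8% and 54.3%. The differences between these shares were not tested. The 24 regions between Rnf144b and Id4 summed to 331 and 360 CPM in CTX and 147 to 214 CPM in GE, with 11 higher in CTX and 2 lower (7 and 2 with the offset). Beside these and the next sets stand the 24.0% of far regions and 15.1% of all tested that were called. Between Ptprn2, a receptor phosphatase of secretory vesicles, and Rapgef5 the 27 regions summed to 290 and 221 CPM in CTX and 470 to 523 CPM in GE. There 13 were lower in CTX and 0 higher (7 and 0 with the offset), and no other desert with 5 or more calls, of 80, had all of them lower, while 7 had all of them higher. Of the 25 Zfhx3 regions 8 were lower and 1 higher (4 and 2 with the offset), and those 25 summed to 153 and 174 CPM in CTX and 203 to 265 CPM in GE. These sets were picked for their values and carry no test.

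The MGE, source of most cortical interneurons of the parvalbumin and somatostatin classes, was set against its neighbours in a fit of the 6 GE samples, all of E12.5. Against LGE, 1215 far regions or 20.1% were called, 431 higher in MGE (4.89% of all tested) and 784 lower (5.83%), where 10.7% of all tested and 16% of those 50 to 200 kb from a start were called. MGE and LGE values were fully apart in all 1215, and in 62.3% of all far regions against 52% of all tested. The median log2 fold was -0.16, beside -0.01 over all tested. With the covered-length offset 919 were called, 154 higher and 765 lower, against 6.55% of all tested, of which 1.28% were higher and 5.28% lower. That offset moved the median of all tested regions by -0.16, to -0.18, and the far regions stood at -0.27. The split rested on MGE samples, with 457 higher and 424 lower on omitting MGE replicate 1 (6.48% of all tested called) and 293 higher and 1194 lower on omitting MGE replicate 2 (13.4%). The count was 623 (5.03%) with LGE replicate 1 left out, and 98 (0.702%) in a fit that also held the CTX samples.

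Higher in MGE than in LGE, the first region of the same ranking lay in an intron of Sdk1, an immunoglobulin-type adhesion molecule, with 10.8 CPM in each MGE sample, 0.76 and 0.56 in LGE, 1.61 and 0.45 in CGE and 28.4 and 3.07 in CTX. MGE exceeded LGE by 4.00 on the log2 scale (SE 0.55, edgeR adjusted p 0.0052), and its MGE level was thus matched or passed in CTX at E12.5. The second, at chr9:47876153-47878437 between the adhesion gene Cadm1 and Nxpe4, held 20.6 and 17.9 CPM in MGE, 1.10 and 1.64 in LGE, 1.42 and 2.23 in CGE and 13.6 and 23.8 in CTX, with MGE above LGE by 3.82 (SE 0.33, edgeR adjusted p 0.00176). The third, 865 kb from the protocadherin gene Pcdh18, was high in MGE alone, with 9.43 and 20.5 CPM there and 0.77 to 1.79 CPM in the other 6 samples, with MGE above LGE by 3.70 (SE 0.45, edgeR adjusted p 0.00375). The offset gave folds of 1.32, 1.47 and 2.13, all still called, and the Sdk1 call was lost in the fit with the CTX samples.

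Both regions given here for MGE below LGE were also open in CTX and CGE. A region 823 kb from the ephrin receptor gene Epha5 held 3.92 and 3.62 CPM in MGE, 63.1 and 59.7 in LGE, 49.7 and 46.5 in CGE and 57.1 and 104 in CTX (-4.03, SE 0.17, edgeR adjusted p 0.000726). Another, 369 kb from Sox9 on the side of Kcnj2, held 0.66 and 1.65 CPM in MGE against 8.44 to 40.05 CPM in the other samples (-3.40, SE 0.42, edgeR adjusted p 0.00394). With the offset the folds were -2.74 and -1.40, both still called, and the Sox9 call was lost in the fit with the CTX samples.

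Against CGE, 1102 far regions or 18.2% were called, 308 higher in MGE (3.58% of all tested) and 794 lower (5.9%), where 9.48% of all tested and 14.4% of those 50 to 200 kb from a start were called. MGE and CGE values were fully apart in all 1102, and in 63.5% of the far regions against 52.4% of all tested. The median log2 fold was -0.27, beside 0.00 over all tested. The offset gave 656 calls, 298 higher and 358 lower, against 5.13% of all tested, and medians of 0.01 and 0.10. On omitting MGE replicate 1 the count was 711 with 314 higher (5.41% of all tested called), and on omitting MGE replicate 2 it was 1498 with 212 higher (13.6%). It was 390 (3.08%) with CGE replicate 1 left out, 372 with 64 higher (2.9%) with CGE replicate 2 left out, and 50 (0.329%) in the fit with the CTX samples.

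By the same ranking the Sdk1 and Cadm1 to Nxpe4 regions were again among the 3 most raised in MGE, together with a region 233 kb from Jarid2, a Polycomb component, that held 11.4 and 12.9 CPM in MGE, 0.85 to 1.57 CPM in LGE and CGE and 4.95 and 0.62 in CTX (3.81, SE 0.26, edgeR adjusted p 0.00185). Both contrasts share the MGE samples, so this repeat is not independent. The Jarid2 and Sdk1 calls were lost in the fit with the CTX samples. The Epha5 region was again among the 3 most lowered that had at least 200 bp covered in every sample, after a region in an intron of AW554918 on chromosome 18 with 0.84 and 1.02 CPM in MGE, 15.0 and 16.4 in CGE, 5.61 and 5.41 in LGE and 8.19 and 5.36 in CTX (-4.09, SE 0.24, edgeR adjusted p 0.00162). With the offset the AW554918 region stood at -1.61 and the Jarid2 region at 2.32, both still called. A RefSeq start of AW554918 lay 175 kb from the former. In the AW554918 region the LGE level fell between the other eminences, apart from both.

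**Figure D5:**
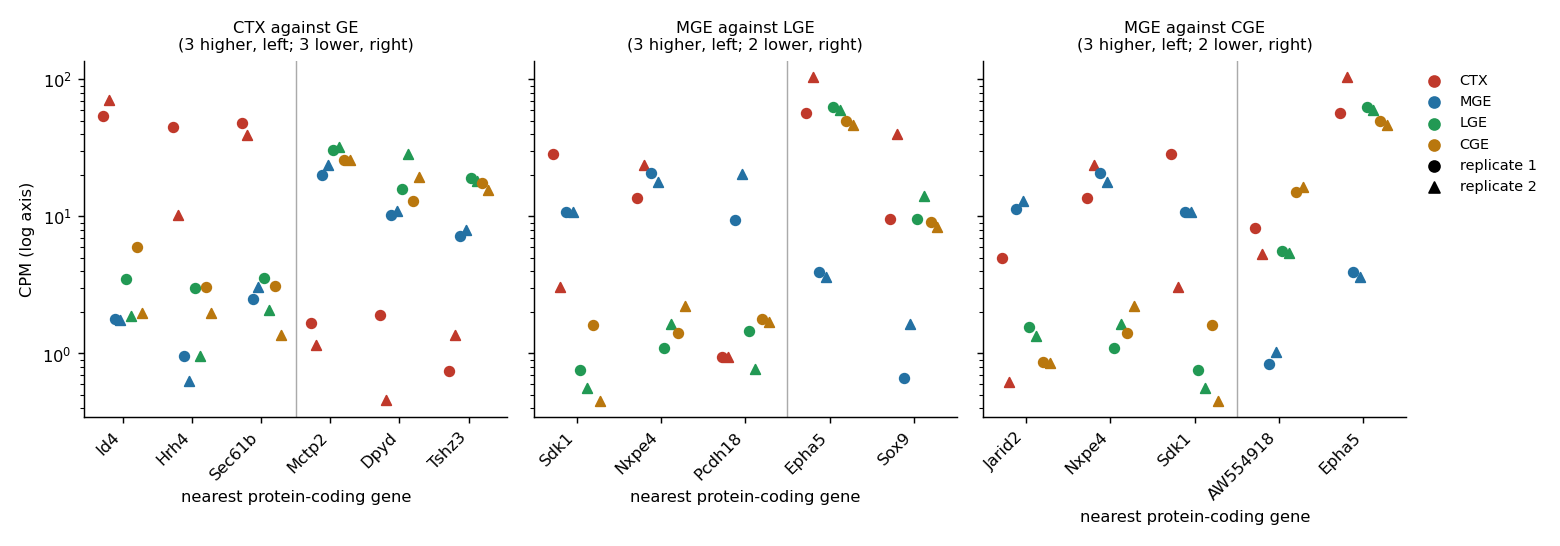
CPM (log axis) in each of the 8 samples of far shared regions with large folds, named by the nearest protein-coding gene. Circles are replicate 1 and triangles replicate 2. Drawn are 3 higher and 2 or 3 lower in each of 3 contrasts. They lead the ranking among called regions with groups apart and at least 200 bp covered in every sample, with 1 region left out. By that choice the red CTX points lie apart from the rest in CTX against GE. In the MGE contrasts the blue MGE points lie apart from the eminence they are set against, also by choice. At Epha5, for example, MGE held 3.92 and 3.62 CPM and LGE and CGE 46.5 to 63.1 CPM.

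Calls between LGE and CGE depended on the tool. edgeR called 0 of the far regions at this threshold (0.00299% of all tested). The smallest edgeR adjusted p among the far regions was 0.0653. DESeq2 called 413 (4.04% of all tested), of which 157 were higher in LGE. edgeR on nuclei with a count called 17 (0.141%), of which 5 were higher in LGE. On omitting LGE replicate 2, which leaves 1 LGE sample, most edgeR calls were lower in LGE. The covered-length offset went the other way, with 125 calls, of which 120 were higher in LGE (1.2% of all tested called). That offset moved the median of all tested regions by 0.25, to 0.26, and the far regions stood at 0.27.

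Regions near the orphan nuclear receptor genes Nr2f1 and Nr2f2, known for caudal expression in the eminences, were looked at one by one. They were chosen after their values were seen. The 22 far regions nearest to Nr2f1 summed to 153 and 237 CPM in MGE, 223 and 227 in LGE, 294 and 315 in CGE and 346 and 466 in CTX, with CGE above MGE and LGE in both samples. In this set 8 were lower in MGE than in CGE and 0 higher (4 and 1 with the offset), where 18.2% of all far regions were called in either direction and 5.9% of all tested were lower. The 21 nearest to Nr2f2 summed to 190 and 255.5 CPM in MGE, 197 and 208 in LGE, 321 and 416 in CGE and 256.1 and 443 in CTX, with 6 lower in MGE than in CGE and 1 higher, and the same counts with the offset. On the CPM scale of the marker genes, peaks over Nr2f1 itself held 385 and 600 CPM in CGE. They held 145 to 283 CPM in the other eminences and 338 and 234 CPM in CTX. Peaks over Nr2f2 held, on the same scale, 222 and 437 CPM in CGE, 226 and 196 in MGE, 74.01 and 116 in LGE and 91.04 and 113 in CTX. CGE thus overlapped MGE. A region 498 kb from Nr2f1, at chr13:78697301-78698574, held 0.43 and 0.97 CPM in MGE, 1.93 and 2.31 in LGE, 5.65 and 7.99 in CGE and 6.22 and 9.74 in CTX, and was lower in MGE than in CGE by 3.31 on the log2 scale (edgeR adjusted p 0.00544), or 1.24 with the offset (0.0188).

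Near the forebrain transcription factors of the list, Nr2f1 and Nr2f2 included, 72 regions were higher and 49 lower in CTX, 24.9% of the 486 on the list against the 24.0% of all far regions. Called with large folds were regions near Sox6, a SOX factor, at 25.9 and 2.79 CPM in CTX and 0.02 to 1.88 CPM in GE (4.48, SE 0.82, edgeR adjusted p 0.0142), and near Bcl11a, a zinc finger factor of cortical neurons, at 20.6 and 29.9 CPM in CTX and 0.11 to 3.73 CPM in GE (3.99, SE 0.63, edgeR adjusted p 0.00913). In both, peaks covered 101 bp or less in an MGE sample, and the offset gave 2.26 and 1.22. Against LGE the list had 30 regions higher in MGE and 66 lower, 19.8% called beside 20.1% of all far regions, and against CGE 15 and 70, or 17.5% beside 18.2%. A region 262 kb from Id4 combined both patterns, with 25.1 and 48.7 CPM in CTX, 0.66 and 1.08 in MGE and 4.82 to 7.55 CPM in LGE and CGE. With the offset it stayed called in CTX (2.09), but not in MGE against LGE (-0.94, edgeR adjusted p 0.0611) or against CGE (-0.59, edgeR adjusted p 0.336). Near Sall1, a zinc finger factor, a region was lower in MGE than in CGE by 3.69 (SE 0.57, edgeR adjusted p 0.00840), with 0.20 and 0.71 CPM against 4.77 and 6.41, or by 1.47 with the offset (0.0072).

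On the adhesion, guidance and synaptic list 113 regions were higher in CTX and 48 lower (23.6% called), with 40 higher and 109 lower in MGE against LGE (21.8% beside 20.1% of all far regions) and 29 and 109 against CGE (20.2% beside 18.2%). A region in an intron of the heparan sulfate proteoglycan gene Gpc5 held 61.7 and 53.9 CPM in CTX, 0.98 and 2.45 in MGE and 14.4 to 20.3 CPM in LGE and CGE, lower in MGE than in CGE by 3.38 (SE 0.42, edgeR adjusted p 0.00481), or 2.14 with the offset. Regions in introns of Tenm2 and Cdh13 were called higher in CTX, at 18.9 and 66.7 CPM and 31.6 and 24.6 CPM against 1.09 to 7.66 and 0.97 to 4.55 CPM in GE, but RefSeq starts of these genes lay at 94.7 and 22.7 kb. With the offset the pair stood at 1.72 and 1.82 on the log2 scale, still called. Near the semaphorin gene Sema6d a region held 0.03 CPM in each CTX sample and 0.63 to 2.28 CPM in GE, with CTX peaks covering 32 and 38 bp. Its log2 difference was -5.69 (edgeR adjusted p 0.00751), or -2.01 with the offset (0.0489).

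Fewer regions lay near the other lists. Of 84 near channels and receptors 14 were higher in CTX and 6 lower, which is 23.8% beside 24.0% of all far regions. A region 281 kb from the serotonin receptor gene Htr2a held 0.17 and 1.00 CPM in MGE against 8.06 to 14.1 CPM in LGE and CGE and 18.8 and 25.7 in CTX. It was lower in MGE than in CGE by 4.60 on the log2 scale (SE 0.65, edgeR adjusted p 0.00663), or by 2.70 with the offset, and MGE peaks covered 127 bp of it in replicate 1. Of 57 near signalling genes 7 were higher in CTX and 1 lower (14.04%). A region 266 kb from Spry2, an inhibitor of receptor tyrosine kinase signalling, held 49.5 and 56.8 CPM in CTX and 5.19 to 16.8 CPM in GE (2.496, SE 0.19, edgeR adjusted p 0.00226, and 1.93 with the offset). Of the 16 near vascular, blood and mesenchymal genes 5 were higher in CTX and 0 lower (31.3%). The 2 with the largest folds lay near the endothelial cadherin gene Cdh5, at 9.96 and 31.2 CPM and 11.03 and 8.92 CPM in CTX against 1.99 to 5.08 and 0.92 to 2.62 CPM in GE, and stayed called with the offset at 1.79 and 1.63. On the CPM scale of the marker genes, peaks over Cdh5 itself held 21.5 and 10.2 CPM in CTX and 3.94 to 7.26 CPM in GE. The 4 endothelial markers together stood at 111 and 97.9 CPM in CTX and 94.5 to 134 CPM in GE. The part of endothelial cells in these values was not tested.

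Sequence at the midpoints differed from that of shared regions in general. A set of 8 motifs was searched in the 300 bases at the midpoint, on both strands, and a window can hold several of them. TAATTA, the homeodomain core, was in 17.7% of far regions, 14.03% of those 50 to 200 kb from a start and 9.91% of all shared regions under 6000 bp. ACAAAG, for SOX factors, was in 32.2%, 29.3% and 25.04%, and the octamer ATGCAAAT of POU factors in 4.63%, 3.67% and 2.57%. The E-box CAGATG was in 24.7%, 25.1% and 22.4% in the same order, and the E-box CAGCTG in 20.5%, 21.3% and 20.8%. TGANTCA, for AP-1, was in 9.05%, 9.34% and 7.83%, and the full palindrome of nuclear factor I in 0.0991%, 0.104% and 0.0994%. The E-boxes and AP-1 were thus slightly less frequent in far regions than at 50 to 200 kb. Nuclear factor I was matched in only 6 far regions, too few to read a direction. The CTCF core motif was also less frequent in far regions, with 4.23% of them, 7.004% of those at 50 to 200 kb and 8.71% of all. Far regions are poorer in G and C than nearer ones, which bears on each of these letters, and the part of base composition was not tested.

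Calls were also counted for far regions with and without the CTCF core, and the difference was not tested. Of those with it 9.77% were called between CTX and GE, 6.25% between MGE and LGE and 7.03% between MGE and CGE, and of the 5798 without it 24.6%, 20.7% and 18.7%. Their median width was 684 bp against 1468 bp, and their median level 4.63 against 5.30 CPM per covered kilobase. TAATTA was in 21.4% of regions higher in CTX, 15.5% of those lower and 17.1% of those not called. Against LGE it was in 20.9% of regions higher in MGE and 20.5% of those lower, and against CGE in 14.9% and 21.7%. In CTX against GE, CAGCTG had the opposite order to TAATTA, at 15.9%, 25.2% and 20.9%, as did CAGATG, at 22.4%, 27.9% and 24.8%. Against LGE, CAGCTG was in 23.2% of regions higher in MGE and 16.8% of those lower. The motifs given here by direction are not all of those searched, and these shares were not tested. A match shows only that the letters are present in the window.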

How the data were processed

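Nuclei of 8 samples were profiled by droplet single-nucleus ATAC-seq. The authors deposited peaks and counts per peak and nucleus, called in each sample separately, and the submitters' processing notes name Cell Ranger ATAC 1.2.0 and the GRCm38 (mm10) build. The settings of that run were not stated in any source read. Nuclei were summed per sample, since nuclei are not replicates, and no nuclei were removed and no doublets called. Peaks were merged across samples and each sample's counts summed over its own peaks in a region. CPM of regions used TMM-scaled library sizes over the 66854 shared regions, and CPM of marker genes used all counts in the sample's own peaks. edgeR 4.0.16 (R 4.3.3) quasi-likelihood tests compared CTX with GE in all 8 samples and the eminences in their 6 samples, with Benjamini-Hochberg adjustment over all shared regions. filterByExpr removed none. In simulated data 100 of 66854 regions were changed by 2 on the log2 scale and 100 by 1, with the same dispersion for all. The test recovered 68% and 4% of them in CTX against GE and 88% and 1% in MGE against LGE. False calls were 2.70% and 6.32% of all calls. So few changed regions are unlike these data, so the recovered shares do not give the power of the real fits. Alternatives were DESeq2 1.42.0, TMM over distal regions, an offset for covered length, nuclei with a count, a replicate block, other distance limits and leaving out each sample.

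Members and gene lists were chosen with earlier results of these data known. The text names the 3 called regions with the largest folds in each direction of each contrast, among those with groups that did not overlap and at least 200 bp covered in every sample (1 of them is not reported here), the 5 highest per kilobase, the 5 farthest, the largest runs, the genes nearest to most regions and the leading regions of each list. Regions of 6000 bp or more were left out, while intervals at chromosome ends were kept.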

Additional observations from a re-analysis of the deposited data

Results flagged for a closer look

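Of the 18 group values examined for a sample far from the others, 1 stood out, where chance gives about 1 in 20. In the region near Pcmtd1, at chromosome 1 from position 7396816, MGE replicate 1 held 74.2 CPM while the other 5 GE samples held 95.99 to 106 CPM. The gap to the nearest sample was 0.68 of the range of the group.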

How the results depend on the processing

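Leaving out 1 sample gave 672 to 2454 calls in CTX against GE, 623 to 1487 in MGE against LGE, 372 to 1498 between MGE and CGE and 0 to 67 between LGE and CGE. Fitting all 8 samples gave 98 and 50 calls in the MGE contrasts. The covered-length offset gave 656 calls between MGE and CGE and 125 between LGE and CGE, and for the latter DESeq2 gave 413 and nuclei with a count gave 17. DESeq2 called 2122, 1740 and 1651 regions in the other contrasts, where 23.2%, 16.8% and 16.1% of all tested were called. Over 300 kb from a start, 775, 680 and 625 of 3270 regions were called, and over 200 kb from any transcript start 106, 75 and 81 of 403, which are smaller sets by construction. The cause of the other shifts was not tested.

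The CTX excess in share of counts was 0.912 points by nuclei with a count (exact permutation p = 0.0714), 0.581 over 300 kb (0.0714), 0.0682 far from any transcript start (0.107), 0.965 with regions over 10 kb as the denominator (0.286) and 0.830 to 1.16 without 1 sample (0.0476 to 0.286). The difference in level was 0.0518 far from any transcript start (exact permutation p = 0.0547) and 0.0562 to 0.0784 without 1 sample. Another region lay within 50 kb of 77.0%, within 200 kb of 93.2% and, over 300 kb from a start, within 100 kb of 84.0%. At the midpoint of the stretch covered in all samples the motif shares were 5.98% for CTCF, 20.2% for TAATTA, 26.4% for CAGATG, 25.2% for CAGCTG, 33.8% for ACAAAG, 0.221% for nuclear factor I and 5.93% for the octamer. Over all shared regions under 6000 bp they were 11.4%, 10.7%, 22.6%, 23.7%, 25.7%, 0.147% and 2.90%. CAGCTG, lower in far regions at the region's midpoint, was thus higher here, and nuclear factor I was too rare to read a direction. Of 240 alternative fits of the 18 largest folds, ranked as above, 236 kept direction and call, and 4 kept direction only, all in the fit of 8 samples. Those folds were picked as the largest among called regions with groups apart, so that keeping direction and call was close to fixed in advance. Some of the fits also repeat the main one, since the filter removed no region, or omit a sample outside the contrast. Among regions named for other reasons some calls were lost with the offset, as given beside them. Correlations of the deviations of same-numbered samples were -0.04 to 0.449 between pairs of groups, not all above 0.1, so the numbers were not used as pairs, although the share of odd entries differed between the replicate 1 and replicate 2 libraries. A replicate block gave 1329, 1226, 1101 and 0 calls, beside 13.8%, 10.9%, 9.48% and 0% of all tested.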

Other observations

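Across contrasts 2508 far shared regions, or 41.4%, were called in at least 1, where 24.6% of all shared regions were. By chromosome the density ran from 6.67 per Mb on chromosome 6 and 7.28 on chromosome 10 to 14.8 on chromosome 11 and 15.5 on chromosome 13.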
